A study of Drosophila melanogaster with 12 samples.

Results

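Heat shock and chaperone genes were followed through 12 RNA-seq libraries of Drosophila melanogaster gonads. The set holds 10 of the 17558 genes counted in each library, taken by name: Hsp23, Hsp26, Hsp27, Hsp68, Hsp83, Hsc70-3, Hsc70-4, Hsc70-5, Hsp60A and Hsp60B. Chaperones are proteins that bind unfolded or newly made proteins and keep them from aggregating. Small heat shock proteins hold unfolded proteins, Hsp70 and Hsp90 type proteins fold them in cycles of ATP hydrolysis, and Hsp60 proteins form closed chambers in mitochondria. In Drosophila, several of these genes are known to be transcribed in the germ line without any heat, among them Hsp83, Hsp26 and Hsp27 in the nurse cells of the ovary.

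The groups were testes of Tdrd5l mutants, testes of a line labelled cas9 iso (the control), ovaries of Tdrd5l mutants and ovaries of cas9 iso, with 3 libraries each. Tdrd5l encodes a Tudor domain protein, and the labels do not describe the lesion. All flies were kept at 25 °C, and the males were 1 to 2 days old and the females 0 to 1 day old. Libraries were made from 200 ng of RNA, which was freed of ribosomal RNA for testes and selected for poly(A) tails for ovaries. Tissue, age and RNA selection therefore cannot be told apart. Whole gonads hold germ cells and somatic cells, so fewer cells of a type and less RNA per cell cannot be told apart either.

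Gene counts totalled 1390699 to 2880119 in testis and 772292 to 1647933 in ovary libraries. The targeted gene, listed as CG15930, had 269 to 414 CPM in mutant and 307 to 390 CPM in control testis libraries, which overlapped, and 8 to 12 counts in mutant and 4 to 9 in control ovary libraries. Its level was thus not lower in the libraries labelled mutant, and gives no check of that label. All 38 genes of a testis germ cell list had counts in every testis library, against 5 to 11 of 38 in the ovary libraries, and summed to 7495 to 15907 CPM (counts per 1000000 gene counts of the library) in testis and 91.9 to 199.7 CPM in ovary. Genes of an ovary list had counts for 15 to 21 of 31 in testis and 21 to 27 of 31 in ovary libraries, and their sums overlapped between the tissues (1070.2 to 2065 CPM in testis, 445 to 2966 CPM in ovary). The eggshell genes Cp16, Cp19 and Vm26Ac of that list had no count in any ovary library. Genes of the list went both ways. The gene exu had 7585 counts in mutant and 4479 in control testes, against 198 in mutant and 132 in control ovaries. More counts in testis were also found for dec-1 and Cp18, and more in ovary for osk, yl, Yp1 and Yp2. Fat body markers (3 to 9 of 10 with counts) summed to 165 to 242 CPM in testis and 13.2 to 74.9 CPM in ovary, and gut markers (0 to 8 of 10) to 18.7 to 53.2 CPM in testis and 0 to 8.25 CPM in ovary. By CPM of the library total both sums were thus higher in testis without overlap, as were several chaperone genes. Sums of hemocyte, neuron and accessory gland lists overlapped between the tissues. Their highest values were 170, 148 and 452 CPM in testis and 306, 299 and 106 CPM in ovary. The part of these tissues in the results was not tested.

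Between 94.9% and 98.0% of uniquely aligned records fell in no gene, and no source used here gives the strand setting of the counting. Gene counts thus rest on 1.95% to 5.02% of these records, so the levels of all genes are uncertain. Genes whose exons lie opposite an exon of another gene are uncertain also because the strand setting is unknown. Genes without such an opposite exon held 39.5%, 43.3% and 26.7% of the gene counts in replicates 1, 2 and 3 of mutant testis, against 29.2%, 33.5% and 36.8% in those of control testis. Their shares were 5.74%, 30.2% and 6.05% in the mutant ovary libraries, against 14.3%, 8.10% and 7.90% in the control ovary libraries. Mutant ovary replicate 2 thus stood apart from the other ovary libraries, and results that rest on it are given with and without it. CPM of the library total moves with this share. Values are therefore also given per 1000000 counts in the 12685 genes without an opposite exon, written as restricted CPM, a scale chosen after seeing the data. For brevity it is also called the restricted scale. Levels and fold bounds on that scale use only this total. Log2 fold changes and calls on it came from fits that add TMM normalization factors over these genes. They can therefore differ from ratios of restricted CPM. In restricted CPM the fat body and gut sums overlapped between the tissues. Control ovary replicate 2 had 924 for fat body (418 to 907 in testis) and 88.0 for gut (43.8 to 183 in testis). The accessory gland sums overlapped as well. Hemocyte and neuron sums were higher in ovary without overlap, at least 1013 and 510 there and at most 469 and 443 in testis.

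Among the 10 genes, 7 have no exon base opposite another gene. Hsp27 has 49 such bases (3.00% of its exons), opposite CR43483. Hsp83 has 15, opposite CG14966, and Hsp68 has 13, opposite CG6000 and lncRNA:CR44097. All 10 are protein-coding, and their positions are those of the BDGP6.54 annotation. The 3 small heat shock genes lie together on chromosome 3L, Hsp26 at 9376418 to 9377427 on the minus strand, Hsp23 at 9381882 to 9382765 and Hsp27 at 9384063 to 9385694 on the plus strand. Hsp83 lies on 3L at 3192969 to 3197059 (plus), Hsp68 on 3R at 24055080 to 24057310 (minus) and Hsc70-4 on 3R at 15242687 to 15246614 (plus). Hsc70-3 (11801696 to 11807117, minus) and Hsp60A (11108482 to 11112308, plus) lie on the X chromosome. Hsc70-5 lies on 2R at 14252598 to 14256192 (minus), and Hsp60B on 2L at 728362 to 730564 (plus).

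Several of these genes differed between testis and ovary, and the 2 Hsp60 chaperonin genes of the set differed from each other in this. Hsp60B, the Hsp60 gene known for a requirement in sperm development, was counted in every testis library and in no ovary library. Mutant testis replicates 1, 2 and 3 had 483, 452 and 187 CPM, against 178, 399 and 382 CPM for control testis. The low library of each genotype was also its lowest in the share of genes without an opposite exon. Ovaries gave 0 of 3469887 counts in mutants and 0 of 2583532 in controls, which allows up to 0.865 CPM and 1.16 CPM (3 counts, counting error only). Against a floor of 3 counts over the ovary group, Hsp60B was at least 468-fold higher in testis in mutants and at least 288-fold higher in controls. On the restricted scale these bounds were 215-fold and 88.3-fold.

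Hsp60A, the Hsp60 gene used throughout the body, was counted in all 12 libraries. Mutant testes had 124, 172 and 95.6 CPM and control testes 101, 129 and 121 CPM. In ovaries it had 23.1, 456 and 28.5 CPM in mutants and 124, 30.9 and 41.4 CPM in controls. The control testis and control ovary values overlapped, and the log2 fold change of testis over ovary in controls was 0.73 (SE 0.40, edgeR adjusted p = 0.105). The fit with TMM factors on the restricted scale gave 0.02 (SE 0.38, edgeR adjusted p = 0.968). Mean restricted CPM were 353 in control testes and 591 in control ovaries.

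Set against its family per kilobase of exon, Hsp60A made up the whole of the ovary Hsp60 counts and a small share of the testis ones. Its share of the 4 Hsp60 genes was 9.25% ± 1.57 in mutant and 10.2% ± 2.48 in control testes, against 99.9% ± 0.0970 in mutant ovaries and 100% in all 3 control ovaries (SD, n = 3 each). Hsp60B held 28.3% ± 5.46 in mutant and 29.4% ± 3.14 in control testes. The remaining testis counts belonged to Hsp60C (38.3% ± 5.68 in mutants, 40.3% ± 2.05 in controls), a paralog also known from spermatogenesis, and to Hsp60D (24.1% ± 1.54 in mutants, 20.1% ± 1.48 in controls). Hsp60C had 0 counts in all 6 ovary libraries and Hsp60D had 1.

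**Figure D1:**
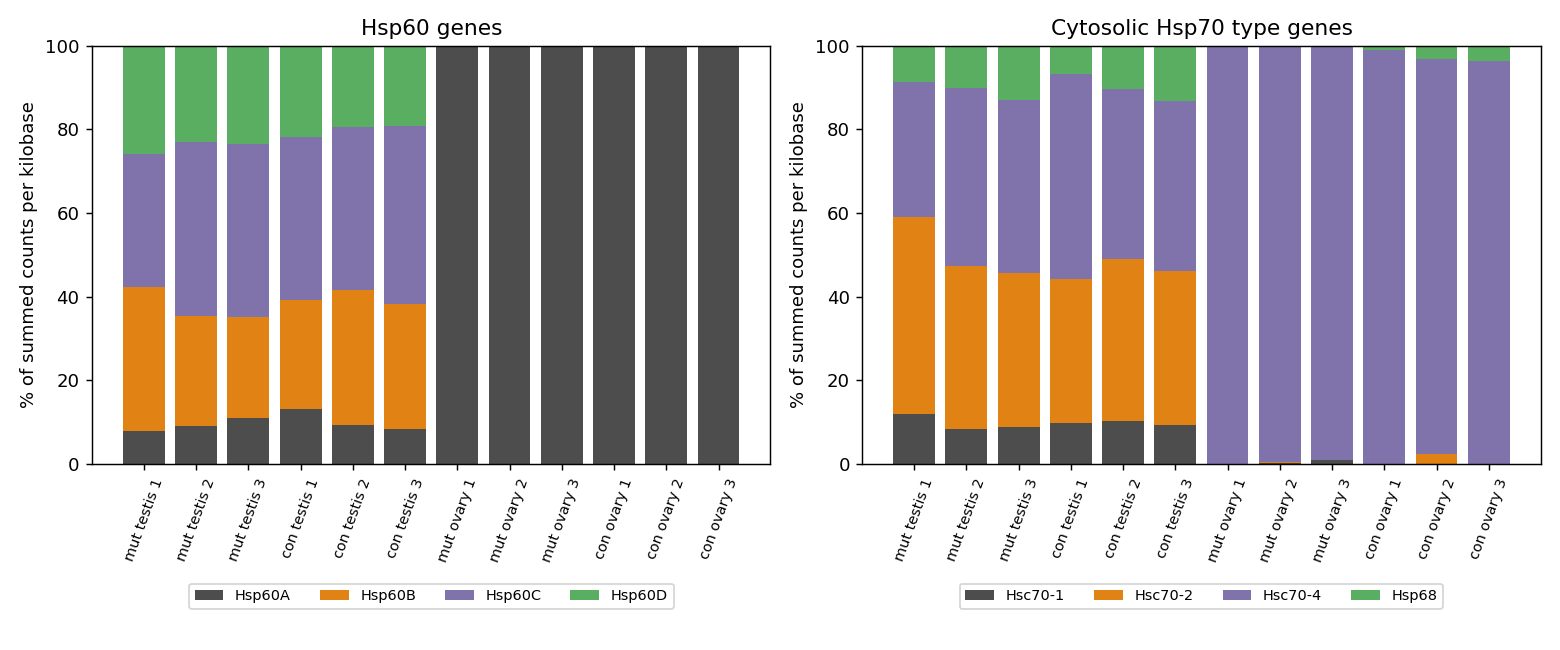
Share of each gene in the summed counts per kilobase of the Hsp60 genes (left) and of the cytosolic Hsp70 type genes (right), in percent, with 1 bar per library; mut is mutant and con is control. Testis bars are split over 4 genes in both families, and ovary bars are almost wholly Hsp60A on the left and Hsc70-4 on the right.

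Hsp10 type proteins cap the Hsp60 chamber. CG9920 made up 96.2% ± 2.41 of the pair CG9920 and CG11267 per kilobase in mutant testes and 98.6% ± 0.669 in control testes. CG11267 held 85.5% ± 14.7 of the pair in control ovaries, where the 3 libraries held only 27 counts of CG11267 and 2 of CG9920. In mutant ovaries its share ran from 0% to 96.5%, on 2 to 95 counts of the pair in a library.

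The small heat shock genes divided between the gonads, with Hsp27 on the other side from Hsp23 and Hsp26. Hsp27 levels were 1.74, 2.92 and 4.87 CPM for mutant testis and 2.88, 2.36 and 5.83 CPM for control testis. Ovary libraries held 7.70, 71.0 and 14.2 CPM in mutants and 51.6, 19.0 and 27.2 CPM in controls. Every ovary library lay above every testis library, although the testis values rest on only 4 to 13 counts. The log2 fold change of testis over ovary was -3.16 (SE 0.85, edgeR adjusted p = 0.00371) in mutants and -3.18 (SE 0.56, edgeR adjusted p = 6.26e-05) in controls. Without mutant ovary replicate 2 the value in mutants was -2.27 (SE 0.84, edgeR adjusted p = 0.0104). Hsp27 passed the filter on low counts through ovary alone, so these p-values are no independent support for a difference.

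Hsp26 levels were 185, 217 and 118 CPM for mutant testis and 79.8, 167 and 188 CPM for control testis. In ovaries it had 4.40, 64.9 and 6.57 CPM in mutants and 43.3, 21.4 and 18.1 CPM in controls. Testis values stood above all ovary values, and the log2 fold change was 2.93 (SE 0.76, edgeR adjusted p = 0.00319) in mutants and 2.26 (SE 0.39, edgeR adjusted p = 5.88e-05) in controls. Without mutant ovary replicate 2 the value in mutants was 4.49 (SE 0.64, edgeR adjusted p = 1.24e-11). Hsp23 levels were 101, 118 and 80.4 CPM for mutant testis and 65.4, 66.2 and 109 CPM for control testis. Its ovary levels were 0, 6.07 and 6.57 CPM in mutants and 6.19, 2.38 and 18.1 CPM in controls, again below every testis library. The log2 fold change of Hsp23 was 4.44 (SE 0.81, edgeR adjusted p = 0.000159) in mutants and 3.05 (SE 0.53, edgeR adjusted p = 6.38e-05) in controls. Hsp23 in both genotypes and Hsp26 in mutants passed the filter on low counts through testis alone. Those p-values are therefore no independent support for a difference.

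In restricted CPM, Hsp23 in control ovary replicate 3 reached 229, inside the control testis range of 198 to 297, and Hsp26 in control testis replicate 1 was at 274, below the highest control ovary library at 304. Mean restricted CPM in control testes and control ovaries were 240 and 101 for Hsp23, and 429 and 266 for Hsp26. Both genes were still called higher in control testis by the fits with TMM factors on that scale. Their log2 fold changes there were 2.25 for Hsp23 and 1.48 for Hsp26. Hsp27 stayed without overlap on that scale. Per kilobase, Hsp27 held 0.761% ± 0.572 of the 3 genes in mutant testes and 0.959% ± 0.312 in control testes, against 42.8% ± 7.96 in mutant ovaries and 33.9% ± 4.39 in control ovaries (SD, n = 3 each).

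**Figure D2:**
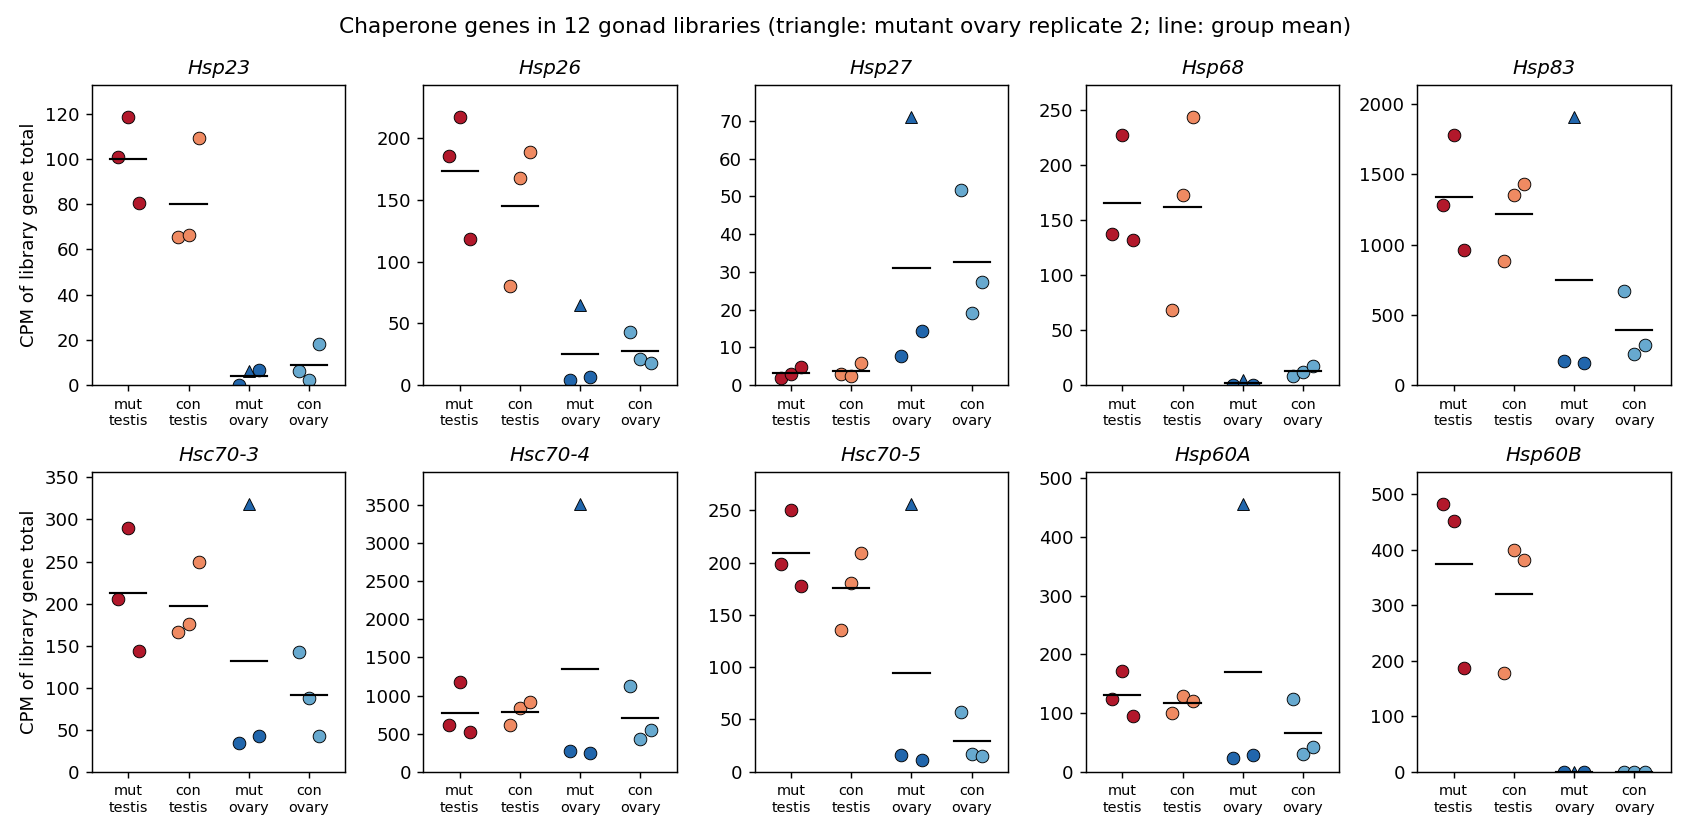
CPM of the library gene total for each of the 10 genes (linear axes that differ between panels), with 1 point per library and a line at the group mean; the triangle is mutant ovary replicate 2. Hsp60B is at 0 in all 6 ovary libraries, Hsp27 is higher in ovary, and the triangle lies far above the other 2 mutant ovary libraries for 7 genes.

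Hsp68, a heat-inducible member of the cytosolic Hsp70 family, was counted in every testis library although no heat treatment is labelled. Mutant testes had 137, 227 and 132 CPM and control testes 68.3, 173 and 243 CPM. Only 1 of 3 mutant ovary libraries held any count, with 0, 4.25 and 0 CPM, against 8.25, 11.9 and 16.8 CPM in control ovary libraries. The testis and ovary values did not overlap on either scale. The log2 fold change of testis over ovary was 6.59 (SE 0.91, edgeR adjusted p = 1.08e-05) in mutants and 3.57 (SE 0.49, edgeR adjusted p = 5.53e-06) in controls. Hsp68 passed the filter on low counts through testis alone, so these p-values are no independent support for a difference.

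Hsc70-4 is the constitutive cytosolic Hsp70 that also strips clathrin from vesicles. Mutant testes gave 619, 1179 and 519 CPM and control testes 618, 836 and 913 CPM. Ovaries gave 266, 3515 and 249 CPM in mutants and 1131, 434 and 548 CPM in controls. The control ranges overlapped, with a log2 fold change of 0.06 (SE 0.28, edgeR adjusted p = 0.865). In restricted CPM, every control testis library (2121 to 2497, mean 2367) lay below every control ovary library (5354 to 7932, mean 6740). The fit with TMM factors on that scale gave a log2 fold change of -0.70 (SE 0.35, edgeR adjusted p = 0.0647). Fitted on genes without an opposite exon alone, Hsc70-4 was called lower in control testis (edgeR adjusted p = 0.0475).

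Among the cytosolic Hsp70 type genes Hsc70-1, Hsc70-2, Hsc70-4 and Hsp68 the testis again used more paralogs. The Hsp70 genes of the heat response were left out of these shares. Of them, Hsp70Ab had 15.8 ± 12.6 CPM per kilobase in control ovaries and 0.947 ± 0.391 in control testes (SD, n = 3 each). Hsp70Bbb and Hsp70Bc had counts in testis libraries only. Per kilobase, Hsc70-4 held 38.8% ± 5.72 of the counts of Hsc70-1, Hsc70-2, Hsc70-4 and Hsp68 in mutant testes and 43.5% ± 4.90 in control testes. It held 99.5% ± 0.448 in mutant ovaries and 96.7% ± 2.29 in control ovaries. Hsc70-2 had 41.1% ± 5.50 in mutant and 36.7% ± 2.18 in control testes, and Hsp68 had 10.5% ± 2.12 in mutant and 10.02% ± 3.30 in control testes (SD, n = 3 each).

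Hsc70-5, the Hsp70 of the mitochondrial matrix, was called higher in testis in controls. Mutant testes had 199, 250.5 and 177 CPM and control testes 136, 181 and 209 CPM. The ovary levels were 16.5, 256 and 10.95 CPM in mutants and 56.7, 16.6 and 15.5 CPM in controls. In controls the tissues did not overlap on either scale, and the log2 fold change was 2.44 (SE 0.41, edgeR adjusted p = 4.16e-05). In mutants replicate 2 of the ovary reached above all testis libraries, and the log2 fold change was 1.41 (SE 0.80, edgeR adjusted p = 0.141) with that library and 3.46 (SE 0.57, edgeR adjusted p = 5.07e-09) without it.

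Hsc70-3, the BiP protein of the endoplasmic reticulum, differed less. Its CPM were 206, 290.2 and 143 in mutant testis, 166, 176 and 249.9 in control testis, 34.1, 319 and 42.7 in mutant ovary and 142, 88.0 and 42.7 in control ovary. The control testes lay above the control ovaries by a log2 fold change of 1.01 (SE 0.34, edgeR adjusted p = 0.0129). Mean restricted CPM were 591 in control testes and 875 in control ovaries. The call was lost in the fit on the restricted scale (log2 fold change 0.23, edgeR adjusted p = 0.573), and without control testis replicate 3 (adjusted p = 0.0655) or control ovary replicate 3 (adjusted p = 0.104). It was also lost with all 12 libraries in 1 model (adjusted p = 0.112) and with genes without an opposite exon fitted apart (adjusted p = 0.574), 5 of 15 alternatives in all.

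Hsp83, the Drosophila Hsp90, is a folding factor for kinases and receptors and works with the piRNA machinery in gonads. Mutant testes had 1282, 1781 and 959 CPM and mutant ovaries 171, 1907 and 159 CPM. Control testes had 883, 1349 and 1429 CPM and control ovaries 669, 219 and 284 CPM. Control testes were higher without overlap, with a log2 fold change of 1.54 (SE 0.32, edgeR adjusted p = 0.000442). In restricted CPM the control ranges overlapped (3029 to 4032 in testis, 2699 to 4693 in ovary), with means of 3649 and 3660. The fit with TMM factors on that scale gave a log2 fold change of 0.79 (SE 0.36, edgeR adjusted p = 0.0402).

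Counted together, 7 of the 10 genes were called higher in control testis than in control ovary and 1, Hsp27, was called lower. Of all 8427 genes tested, 49.3% were called higher and 26.5% lower, so a call in this comparison was common. By CPM 7 genes lay higher (all genes 47.6%) and 1 lower (20.8%) in control testis without overlap, and by restricted CPM 3 lay higher (32.4%) and 2 lower (36.3%). The median log2 fold change was 1.90 over the 10 genes and 1.04 over all genes. Scaled by genes without an opposite exon, 6 were called higher (all genes 37.5%) and 1 lower (38.7%), with medians of 1.14 over the 10 genes and -0.08 over all genes. Hsp23, Hsp27, Hsp68 and Hsp60B reached 10 counts in fewer than 3 libraries of the lower tissue. They thus entered the test through the higher tissue, which favoured a call in that direction. In mutants this held for these 4 and Hsp26.

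In mutants 4 genes were called higher in testis (Hsp23, Hsp26, Hsp68 and Hsp60B; all genes 38.2%) and Hsp27 was called lower (all genes 19.3%). The same counts were obtained on the restricted scale, where 35.0% of all genes were called higher and 26.9% lower. Without mutant ovary replicate 2, 9 genes were called higher (all genes 52.7%) and 1 lower (22.1%). Scaled by genes without an opposite exon and without that library, 7 were higher (39.7%) and 1 lower (29.5%). Hsc70-4 and Hsp60A, with log2 fold changes of -0.56 and -0.11 in all 6 libraries, were at 1.09 (edgeR adjusted p = 0.0299) and 1.86 (edgeR adjusted p = 0.000578) without replicate 2.

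**Figure D3:**
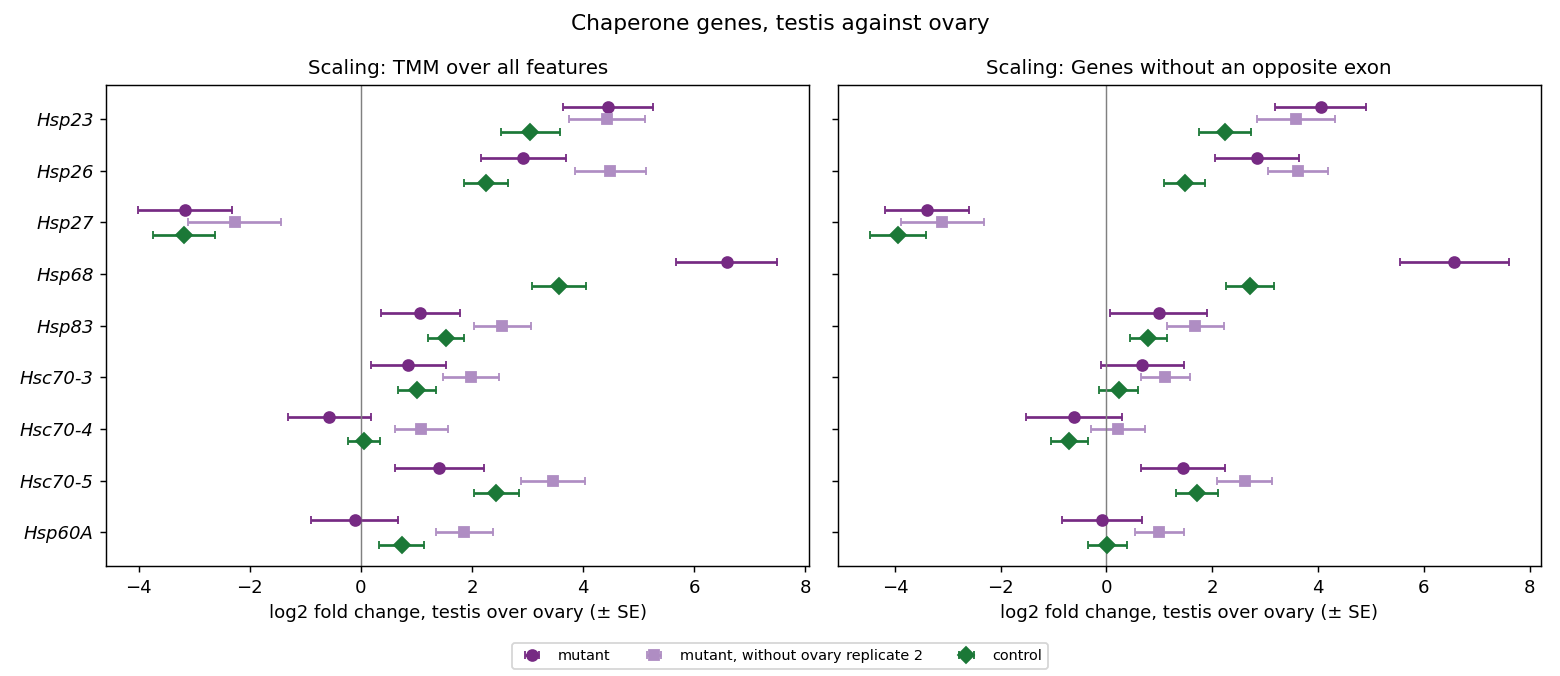
Log2 fold change of testis over ovary with its standard error for 9 genes, scaled by TMM over all features (left) or by genes without an opposite exon (right). Hsp60B, at 0 in ovary, is left out, as is Hsp68 without ovary replicate 2; Hsp27 lies left of 0 in every fit, and Hsc70-4 and Hsp60A lie near 0 in controls on at least 1 of the scales.

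Levels between genes were set side by side per kilobase of exon. In control testes Hsp83 came first with 412 ± 99.7 CPM per kilobase, ahead of Hsc70-4 with 291 ± 56.3 and Hsp60B with 145 ± 55.7 (SD, n = 3 each). In mutant testes Hsp83 and Hsc70-4 were again first and second, with 453 ± 140.02 and 284 ± 131 CPM per kilobase. The genes from Hsp60B down to Hsp60A (47.1 ± 5.87) followed each other in control testes with gaps below the larger SD of the neighbours, and Hsp27 was last with 2.26 ± 1.15. In control ovaries Hsc70-4 (259 ± 138) and Hsp83 (132 ± 82.3) differed by less than the larger SD. The genes from Hsp26 (27.3 ± 13.6) down to Hsp68 (5.52 ± 1.93) likewise differed from their neighbours by less than the larger SD, and Hsp60B was at 0.

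Between mutant and control testes none of the 10 genes was called. Of the 9 that passed the filter on low counts (all but Hsp27), 0 were called at an adjusted p under 0.05, against 0.942% of all 9768 genes tested. Their log2 fold changes of mutant over control ran from -0.06 for Hsc70-4 (SE 0.34) to 0.31 for Hsp23 (SE 0.33), with edgeR adjusted p from 0.906 to 0.994. The median was 0.14 over the 9 genes and 0.03 over all genes. Hsp60B had a log2 fold change of 0.20 (SE 0.35, edgeR adjusted p = 0.955), with averages of 374 ± 163 CPM in mutants and 320 ± 123 CPM in controls (SD, n = 3 each). The genotypes overlapped in all 10 genes, where 4.62% of all genes lay higher and 7.12% lower in mutants without overlap.

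Without mutant testis replicate 3, the testis library with the lowest share of counts in genes without an opposite exon, 725 genes were called in place of 92, and still 0 of the 9. With the restricted scaling 0 of 9 were called (all genes 0.418%), and the log2 fold changes ran from -0.15 for Hsc70-4 to 0.24 for Hsp23.

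Between mutant and control ovaries no gene of the set was called either. With all 6 libraries, 0 of the 7 genes that passed the filter were called, and 0 of all 4683 genes tested (edgeR; 184 genes at an unadjusted p under 0.05, and 14 called by DESeq2). Log2 fold changes ran from -0.09 for Hsp26 (SE 0.96) to 1.68 for Hsc70-5 (SE 1.16), with a median of 0.93, against 0.14 over all genes. Hsp23, Hsp68 and Hsp60B did not reach the filter. The restricted scaling gave 0 of 7 calls beside 0.0966% of all genes, with log2 fold changes from -0.73 for Hsp26 to 0.94 for Hsc70-5.

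Mutant ovary replicate 2 was the highest ovary library by CPM for these 7 genes. Its CPM were 18.7 times the mean of mutant ovary replicates 1 and 3 for Hsc70-5, 17.7 times for Hsp60A, 13.7 times for Hsc70-4, 11.8 times for Hsp26, 11.6 times for Hsp83, 8.29 times for Hsc70-3 and 6.47 times for Hsp27. Over the 2133 genes without an opposite exon and with at least 10 counts in replicates 1 and 3 together, the median of this ratio was 3.47. In restricted CPM the ratios of the 7 genes lay between 1.27 for Hsp27 and 3.61 for Hsc70-5, beside a median of 0.679 over the same 2133 genes.

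**Figure D4:**
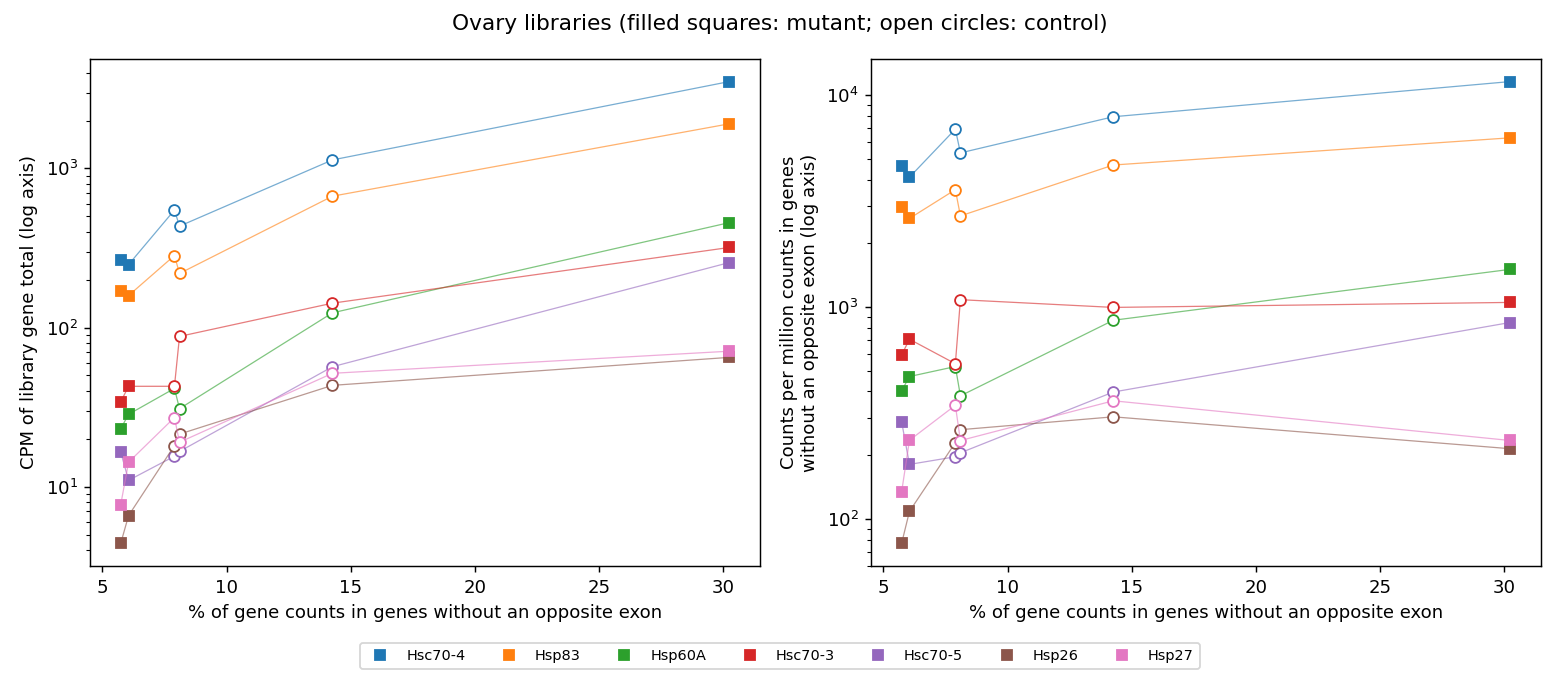
Levels of 7 genes in the 6 ovary libraries against the share of gene counts in genes without an opposite exon (percent), as CPM of the library total (left) and as restricted CPM (right); both vertical axes are logarithmic, filled squares are mutant and open circles control libraries, and lines join the libraries of a gene. Mutant replicate 2 is the square at 30.2%, and on the left it is the highest library for all 7 genes, while each gene's lowest lies at 5.74% or 6.05%.

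Without replicate 2, all 8 genes tested had negative log2 fold changes of mutant over control ovaries, with a median of -1.10 against -0.09 over all genes. None of the 8 was called, while 1.14% of all 4826 genes were. The values were -2.03 for Hsp26 (SE 0.62, edgeR adjusted p = 0.140), -1.29 for Hsp27 (SE 0.56, adjusted p = 0.253), -1.16 for Hsc70-4 (SE 0.34, adjusted p = 0.148) and -0.95 for Hsp83 (SE 0.42, adjusted p = 0.290). Hsp60A (-1.05), Hsc70-3 (-0.96) and Hsc70-5 (-0.82) had adjusted p of 0.335, 0.272 and 0.486. Hsp68 had 0 counts in these mutant libraries and 31 in controls, so it passed the filter through the controls alone. Its level was at least 7.29-fold lower (edgeR adjusted p = 0.0983), and at least 4.15-fold lower on the restricted scale.

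In these 2 mutant libraries 7 of the 9 genes with at least 10 counts lay below all 3 control ovaries (Hsp26, Hsp27, Hsp68, Hsp83, Hsc70-3, Hsc70-4 and Hsp60A). For Hsc70-3 the gap was slight, with 42.72 CPM in mutant replicate 3 against 42.73 CPM in the lowest control. Over all genes 28.2% lay lower without overlap. By restricted CPM Hsp26, Hsp68 and Hsc70-4 did so, 3 of 9 beside 9.81% of all genes. There 0 of 7 tested genes were called (2.18% of all 4445), with log2 fold changes from -1.57 for Hsp26 (SE 0.69, edgeR adjusted p = 0.243) to -0.29 for Hsc70-5 (SE 0.57, edgeR adjusted p = 0.791). Their median was -0.51, against 0.34 over all genes.

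With all 6 libraries kept, Hsp68 was lower in every mutant ovary than in any control ovary by CPM (all genes 7.39%), and Hsp26 and Hsp68 were on the restricted scale (367 of 9185 genes, or 4.0%). Hsp26 there had 76.7, 215 and 109 restricted CPM in mutant ovaries, against 304, 264 and 229 in control ovaries. Hsp68 had 7 counts in mutants and 31 in controls.

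Muscle markers moved with the same libraries. Counts were found for 12 to 14 of the 16 genes of that list in mutant ovaries and 13 to 14 in control ovaries. They summed to 476, 5152 and 504 CPM in mutant ovary libraries 1, 2 and 3, against 3376, 1081 and 1098 CPM in control ovary libraries. In restricted CPM the sums were 8306, 17036 and 8327 in mutants and 23672, 13347 and 13901 in controls, so the mutant libraries 1 and 3 were the lowest on both scales. Act79B, a muscle actin gene of the list, had no count in any ovary library. The part of muscle RNA in the chaperone values was not tested. The ovary list summed to 8095, 9806 and 7350 restricted CPM in mutant ovaries and 5647, 7466 and 6114 in control ovaries, each above the highest testis library at 4770.

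**Figure D5:**
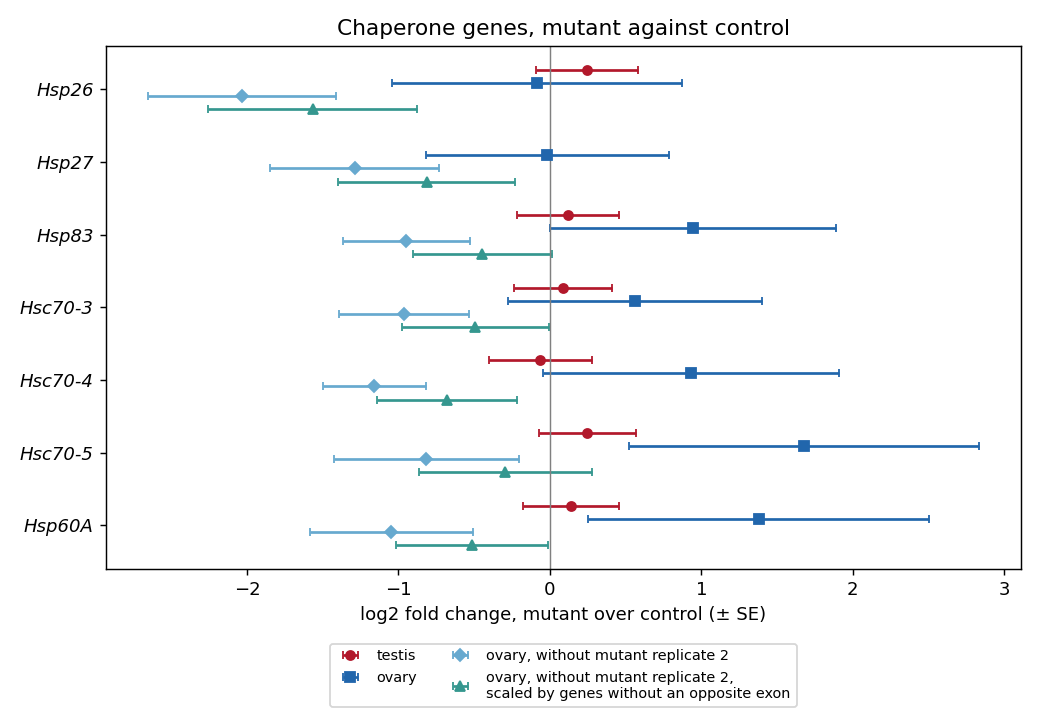
Log2 fold change of mutant over control with its standard error for 7 genes, in testis and in ovary; ovary is shown with all 6 libraries, without mutant replicate 2, and without it on the restricted scale. Testis values lie within 0.25 of 0, and the ovary values lie left of 0 for all 7 genes once replicate 2 is left out.

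No difference between the genotype effects of the tissues was called for any of the 10 genes. The interaction gave 0 of 10 calls, beside 0.0291% of 10321 genes. Hsp68 had the smallest adjusted p, with an interaction of 2.99 on the log2 scale (SE 0.94, edgeR adjusted p = 0.659). Without mutant ovary replicate 2 the interactions of all 10 genes were positive, with a median of 1.09 against 0.34 over all genes, and 0 of 10 were called (all genes 0.0570%). Scaled by genes without an opposite exon, 0 of 10 were called with all libraries (all genes 0.0461%) and without that library (0.160%).

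Other chaperone genes were followed with a list of 67. None of the 55 tested was called between mutant and control testes, nor of the 34 tested between mutant and control ovaries. Without mutant testis replicate 3, CG11267, CG9920 and CG12020 were called higher in mutant testes (3 of 56, beside 287 of all 10619 genes). Without control testis replicate 3, CG11267 was called higher there (1 of 55, beside 37 of all 9831 genes). In controls 26 of 51 were higher (all genes 49.3%) and 9 lower (26.5%) in testis than in ovary, and on the restricted scale 17 of 52 were higher (37.5%) and 15 lower (38.7%). In mutants 16 of 53 were higher (all genes 38.2%) and 3 lower (19.3%), and without mutant ovary replicate 2 these counts were 34 of 54 higher (52.7%) and 4 lower (22.1%). Genes counted almost only in testis were Hsp60C (at least 590-fold higher in mutants and at least 383-fold in controls), CG8476 (at least 283-fold in mutants and 163-fold in controls) and, in controls, Hsp60D and Hsc70-1 (at least 167-fold and 161-fold). On the restricted scale the bounds were 271-fold in mutants and 118-fold in controls for Hsp60C, 129.8-fold and 50.1-fold for CG8476, and 51.4-fold and 49.4-fold for Hsp60D and Hsc70-1 in controls. Other genes of this kind were CG9920, CG12020, Hsc70-2, CG4456 and Cnx14D, a calnexin gene. CG12020 shares same-strand exon sequence with Cdc37, and CG4456 with Hsp22, so their counts are uncertain.

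The lower ones in control testis included mora, a CHORD domain gene and Hsp90 partner, with a log2 fold change of -2.50 (SE 0.32), and Torsin, an ATPase of the endoplasmic reticulum, with -2.57 (SE 0.37). Both have exon bases opposite other genes, as has Pfdn1, a prefoldin subunit at -1.62 (SE 0.40), and they are uncertain for that reason. The Hsp90 cochaperone p23, with no opposite exon, was at -1.64 (SE 0.41, edgeR adjusted p = 0.00157).

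Heat shock factor, Hsf, which drives heat shock genes, did not pass in the testis or tissue comparisons and was below the filter between the ovaries. It averaged 11.5 ± 7.78 CPM in mutant and 14.6 ± 3.46 CPM in control testes, and 12.7 ± 15.4 CPM in mutant and 8.99 ± 4.95 CPM in control ovaries (SD, n = 3 each). In restricted CPM, Hsf was at 37.8 to 54.7 in control testes, below all control ovaries at 58.7 to 101 (all genes 36.3% lower without overlap). In mutants the tissues overlapped on that scale (20.2 to 47.2 in testis, 38.4 to 100.3 in ovary). The Hsp70 genes of the heat response are near-identical copies whose reads cannot be placed with certainty. Hsp70Ab had the most counts of them, 0 to 4 in mutant testis, 2 to 6 in control testis, 1 to 12 in mutant ovary and 6 to 51 in control ovary libraries.

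When mutant ovary replicate 2 was left out, 1 of the 34 other chaperones tested was called between the ovaries (all genes 1.14%). This was Cdc37, a cochaperone that brings kinases to Hsp90. It had 0 counts in mutant libraries 1 and 3 and 123 in replicate 2, against 44, 23 and 6 in control libraries. Without replicate 2 it thus passed the filter on low counts through the controls alone, so its p-value is no independent support for a difference. The level without replicate 2 was at least 17.2-fold lower (edgeR adjusted p = 0.046), and at least 9.77-fold lower on the restricted scale. The antisense RNA asRNA:CR45818 lies opposite 23.03% of its exon bases, so the value is uncertain.

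Genes with the most similar profile were sought by Pearson's r of log2(CPM + 1), as a description over libraries that share tissue and RNA selection. Over the 12 libraries CG14658, the unannotated FBgn0034133 and Vha100-3 were closest to Hsp60B (r of 0.9998 each). Within the 6 testis libraries eIF5B, eRF1 and CG31468 were closest to it (r of 0.999, 0.998 and 0.997). For Hsp26 the closest were Zif, Rop and Vsp37A over the 12 libraries (r of 0.992, 0.992 and 0.988), and Fim, Pka-R2 and chrb over the 6 ovary libraries (r of 0.999, 0.998 and 0.997).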

How the data were processed

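RNA-seq of testes and ovaries was given as whole-number read counts per gene, which the authors deposited for each library. The submitters' processing notes name TopHat2 2.1.1, HTSeq 0.9.1 and the build BDGP6. Whether the reads mark strand was not tested. Groups came from the sample labels, and nothing shows that replicate numbers pair the samples. The genes, the 67 other chaperones and the marker lists were chosen with earlier results of these data known. Rows that name no gene were left out of library totals; the largest of them, records in no gene, made up 94.9% to 98.0% of uniquely aligned records.

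Counts were tested with edgeR 4.0.16 in R 4.3.3 (quasi-likelihood F test, TMM scaling, at least 10 counts by filterByExpr, Benjamini-Hochberg adjustment over all genes tested, threshold 0.05), on the 2 groups compared, or all 4 for the interaction. With 3 libraries a group, the test sets a group difference against a spread between libraries that is moderated over all genes tested. The procedure was tested on simulated data. Opposite exons, lengths and positions came from Ensembl release 115. Replicates of a group differed beyond counting noise in every pair (chi-square per degree of freedom 4.31 to 50.6). Fold bounds use a floor of 3 counts over the group and cover counting error only. Other chaperones were named as the 8 called genes of largest fold change per comparison; CG11267, p23, mora, Torsin, Pfdn1, Hsf, Hsp70Ab and Cdc37 were named after their values were seen. Alternatives were other scalings and filters, DESeq2 1.42.0, a replicate block, genes without an opposite exon fitted apart, all 12 libraries in 1 model and each library left out. Scaling by genes without an opposite exon was added after seeing the data.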

Additional observations from a re-analysis of the deposited data

How the results depend on the processing

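The count of genes called between mutant and control testes was 92 and became 58 with library size alone, 32 with genes without an opposite exon fitted apart, 9 with all 12 libraries in 1 model, 41 with scaling by genes without an opposite exon, and 50 to 725 with 1 library left out. Between ovaries 0 became 7 without a filter, 3 with a filter of 1 CPM, 14 with DESeq2, 5 with all 12 libraries, 4 with the restricted scaling, 97 with that scaling without mutant ovary replicate 2, and 0 to 55 with 1 library left out. Fitting genes without an opposite exon apart tested fewer genes and called 3394 between control tissues and 3308 between mutant tissues. The interaction count of 3 became 5 with DESeq2 size factors, 6 without a filter, 13 with DESeq2, 1 with genes fitted apart, 5 with the restricted scaling, 18 with it and without mutant ovary replicate 2, and 1 to 6 with 1 library left out. No chaperone of the set was called between genotypes or in the interaction in any of these.

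A replicate block gave 79 calls between testes, 0 between ovaries, 5904 between control tissues, 5082 between mutant tissues and 2 in the interaction. Same-numbered libraries did not deviate together (correlations of -0.39 to 0.22), so the pairing is by number only. With the block, log2 fold changes turned to -0.13 for Hsc70-4 between ovaries, and to 0.11 for Hsc70-4 and 0.79 for Hsp60A between mutant tissues. There the block also added calls for Hsp83 (1.68, edgeR adjusted p = 0.0267) and Hsc70-5 (2.37, edgeR adjusted p = 0.0172). Thus 6 genes of the set were called higher in place of 4, beside 3561 of all 9182 genes in place of 3507.

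Other log2 values changed sign without the cause being tested. Between genotypes these were Hsp68 in testis (-0.023, restricted scaling), Hsp27 in ovary (0.0022, DESeq2 size factors) and Hsc70-3 in ovary (-0.014 fitted apart and -0.014 with the restricted scaling). Restricted scaling without mutant ovary replicate 2 gave ovary values of -0.45 for Hsp83, -0.49 for Hsc70-3, -0.68 for Hsc70-4, -0.29 for Hsc70-5 and -0.51 for Hsp60A, and interactions of 0.59, 0.58, 0.63, 0.61 and 0.69 for the same genes in this order. It gave 0.22 for Hsc70-4 and 1.00 for Hsp60A between mutant tissues, where Hsp60A was 0.21 with DESeq2 size factors and 0.22 with DESeq2. Hsc70-4 between control tissues was -0.70 fitted apart, a call lower in testis (edgeR adjusted p = 0.0475), and -0.70 with the restricted scaling. The Hsp27 interaction was -0.23 with library size alone, -0.0093 without a filter and -0.00096 with the 1 CPM filter.

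With 1 library left out, testis log2 fold changes of mutant over control ran from -0.014 to 0.45 for Hsp26, -0.30 to 0.42 for Hsp68, -0.041 to 0.22 for Hsp83, -0.10 to 0.26 for Hsc70-3, -0.39 to 0.079 for Hsc70-4, -0.010 to 0.22 for Hsp60A and -0.054 to 0.45 for Hsp60B. Ovary values ran from -2.03 to 0.31 for Hsp26, -1.29 to 0.40 for Hsp27, -0.95 to 1.49 for Hsp83, -0.96 to 0.96 for Hsc70-3, -1.16 to 1.37 for Hsc70-4, -0.82 to 2.47 for Hsc70-5 and -1.05 to 2.14 for Hsp60A. Tissue values of Hsc70-4 ran from -0.99 to 1.09 in mutants and -0.19 to 0.38 in controls, and those of Hsp60A from -0.57 to 1.86 in mutants. Interactions ran from -0.36 to 0.98 for Hsp27, -0.97 to 1.07 for Hsp83, -0.51 to 1.05 for Hsc70-3, -1.05 to 1.10 for Hsc70-4, -1.80 to 1.07 for Hsc70-5, -1.57 to 1.201 for Hsp60A and -0.022 to 0.59 for Hsp60B.

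In controls Hsp60A was called higher in testis with DESeq2 size factors, without a filter, with DESeq2 and without control ovary replicate 1 (log2 fold change 1.39, edgeR adjusted p = 0.000447). In mutants Hsp26 lost its call with library size alone (edgeR adjusted p = 0.0542). Hsc70-5 was called higher in mutant testis with DESeq2 size factors (edgeR adjusted p = 0.038) and with DESeq2 (adjusted p = 0.0441). In each, 5 genes of the set were called higher, beside 3909 and 3889 of all 9182 genes. In controls 4 of 7 genes were called higher when fitted apart (2245 of all 4714 genes), and 6 of 10 with all 12 libraries (4414 of all 10321 genes). Low counts limit Hsp27 in testis and Hsp23 and Hsp68 in ovary.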
